A study of Mus musculus with 2 samples.

Results

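Interferon-induced genes were examined in crypts of the mouse small intestine after deletion of Lpcat3, the gene of a lysophospholipid acyltransferase, from the epithelium. The set was a written list, chosen with earlier results of these data known, of 41 genes out of the 18193 that the array names. It was divided by the inducing cytokine into 34 genes known chiefly for their response to type I interferon (type I members) and 7 known for their response to interferon gamma (Gbp2, Gbp3, Gbp6, Igtp, Irgm1, Iigp1 and Irf1, the gamma members). Many of these genes respond to both cytokines, and Cxcl10, counted here as a type I member, is induced strongly by interferon gamma as well. Of the 41 genes, 39 had a probe set annotated to that gene alone, while Isg15 and Ifi44 had none and are without a value here.

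The control group carried floxed Lpcat3 alleles (Lpcat3 F/F), and the knockout group carried the same alleles with Villin-CreERT2, a tamoxifen-activated Cre recombinase under the Villin promoter, which is active in intestinal epithelial cells. All mice were 8 to 10 weeks old and received tamoxifen at 1 mg per mouse on each of 5 days, and crypts were collected 2 weeks afterwards. Each genotype was represented by a pool of RNA from 5 mice, hybridised to 1 Affymetrix array. Without replicates the genotypes could not be compared by a test, so p-values are absent, and precision is limited by there being 1 array on each side. Only the knockout pool carried Cre, so effects of Lpcat3 loss cannot be told apart from those of the transgene, pool or array. The arrays had median signals of 95.4 (control) and 90.5 (knockout), and the Lpcat3 probe set, whose position in relation to the floxed part is unknown here, read 4691 and 928. All 12 epithelial markers examined were above the signal floor on both arrays.

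Cells detect foreign nucleic acid through sensors such as RIG-I and MDA5, which leads to secretion of type I interferon. The receptor for type I interferon activates a transcription factor complex that contains STAT2 and IRF9 and binds the interferon-stimulated response element (ISRE) in the promoters of antiviral genes. Interferon gamma, secreted mainly by T and natural killer cells, acts through gamma-activated sites (GAS) in promoters and induces IRF1 and the GTPases that attack intracellular pathogens. In the intestine, epithelial cells also respond to interferon lambda, which uses its own receptor but drives the same ISRE-dependent genes.

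Promoters of some of the genes described below are shown first, chosen after their values were seen, as the 160 bases before the annotated start on the strand of the gene (RefSeq, GRCm38.p6). Capitals mark matches to the ISRE core, which is GAAA, any 2 bases and GAAA again (TTTC, any 2 bases and TTTC on the other strand), and to the palindromic GAS motif, TTCNNNGAA. Rsad2, Oasl1, Oas1a, Ifit1 and Ifit3 had higher signals in the knockout pool, and Usp18 and Mx1, also higher, have no entry in the table. Oas3 lies near Oas1a and did not share its ratio, and Igtp and Irf1 are gamma members.
Rsad2 (chr12:26456453-26456612, minus strand): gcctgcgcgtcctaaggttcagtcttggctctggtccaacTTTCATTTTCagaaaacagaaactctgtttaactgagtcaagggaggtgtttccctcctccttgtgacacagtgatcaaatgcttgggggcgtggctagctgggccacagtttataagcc
Oasl1 (chr5:114923080-114923239, plus strand): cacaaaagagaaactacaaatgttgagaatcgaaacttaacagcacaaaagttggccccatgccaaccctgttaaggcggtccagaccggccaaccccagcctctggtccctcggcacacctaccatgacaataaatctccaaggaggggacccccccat
Oas1a (chr5:120907526-120907685, minus strand): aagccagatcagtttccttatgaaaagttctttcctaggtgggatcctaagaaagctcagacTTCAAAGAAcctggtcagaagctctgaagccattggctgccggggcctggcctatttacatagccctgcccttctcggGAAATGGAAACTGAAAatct
Oas3 (chr5:120777660-120777819, minus strand): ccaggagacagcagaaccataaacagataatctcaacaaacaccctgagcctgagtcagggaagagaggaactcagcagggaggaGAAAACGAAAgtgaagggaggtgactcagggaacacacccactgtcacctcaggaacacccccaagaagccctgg
Ifit1 (chr19:34640729-34640888, plus strand): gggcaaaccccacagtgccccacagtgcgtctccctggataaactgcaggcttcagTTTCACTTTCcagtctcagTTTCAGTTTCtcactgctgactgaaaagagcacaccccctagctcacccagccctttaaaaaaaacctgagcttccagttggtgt
Ifit3 (chr19:34583369-34583528, plus strand): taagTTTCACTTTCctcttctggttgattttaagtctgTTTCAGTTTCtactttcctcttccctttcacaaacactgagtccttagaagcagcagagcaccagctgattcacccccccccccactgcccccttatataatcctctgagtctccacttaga
Igtp (chr11:58199396-58199555, plus strand): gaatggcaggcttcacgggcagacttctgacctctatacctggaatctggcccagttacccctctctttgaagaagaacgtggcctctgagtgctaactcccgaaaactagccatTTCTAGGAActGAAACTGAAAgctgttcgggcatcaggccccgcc
Irf1 (chr11:53769854-53770013, plus strand): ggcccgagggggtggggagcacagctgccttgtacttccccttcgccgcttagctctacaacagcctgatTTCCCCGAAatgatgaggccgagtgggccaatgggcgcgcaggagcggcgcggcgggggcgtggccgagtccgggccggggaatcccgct
Oasl1 has no match to either motif in this stretch. Ifit1 and Ifit3 each hold a pair of separate ISRE cores, and those of Oas1a overlap each other directly before the start. In Igtp a GAS match is closely followed by an ISRE core, whereas Irf1 has a GAS match and no ISRE core in this stretch. Irf1 has 2 annotated starts, and the one shown was chosen for its GAS match, while the other had neither motif nearby.

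A minority of the type I members, 8 of 31 measured, were at least 1.5-fold higher in the knockout pool. None of the gamma members was, but only 6 were measured. Values are MAS5 signals, a linear brightness per probe set, and ratios are log2 of the knockout signal over the control signal for the brightest probe set of each gene. Signals below a floor of 92.9, the median of all values, were raised to it, so a gene above the floor on 1 array only has a bound, written as "at least". Of the 39 genes with a probe set, 37 exceeded the floor in 1 pool or both, among them 32 in both, and Mx2 and Gbp3 were below it on both. Of the 37, 8 were at least 1.5-fold higher in the knockout pool (21.6%), against 4.76% of all 11496 genes above the floor on at least 1 array. At least 1.5-fold lower were 2 of the 37 (5.41%), against 8.74% of all genes. At 2-fold, 4 members were higher and none of the 37 lower, against 1.41% and 2.32% of all genes. The members and the further lists below were chosen with earlier results of these data known. Their shares therefore describe the lists and are no test of a difference from all genes. The 37 comprised 31 type I members and only 6 gamma members, so most members that could pass either threshold were type I members. All 8 higher members were type I members (25.8% of the 31, against 4.76% of all genes). Among the 8, Mx1 and Isg20 entered through the knockout array alone, which obliged them to differ. Both lower members, Iigp1 and Gbp6, were gamma members (33.3% of the 6, against 8.74% of all genes). Gbp6 entered through the control array alone, which obliged it to differ as well. With the floor at the 70th percentile, 4 of 25 members passed 1.5-fold upwards and 0 downwards, and with a pseudocount equal to the floor 6 and 1 of 39 did. The share of all genes past 1.5-fold was not computed under either setting, so these counts cannot be set against it.

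Most of the 37 genes, 27 of them, lay within 1.5-fold, as did 9944 of all 11496 genes above the floor on at least 1 array. Over the 28 type I members above the floor on both arrays the median log2 ratio was 0.10, and 16 of them were above 0 and 12 below. Of all 10452 genes above it on both, 4730 were above 0 and 5722 below. The 4 gamma members above the floor on both arrays had a median of -0.21, and the median of 10452 genes of all kinds was -0.039. With a pseudocount equal to the floor, which keeps every gene with a probe set, the medians were 0.12 for 32 type I members, -0.15 for 7 gamma members and -0.025 for all 18193 genes. Probe sets of the same gene differed with a technical SD of 0.28 on the log2 scale (4582 genes), an error that leaves out the spread between mice, pools and arrays. The ratios of Oasl1, Rsad2 and Usp18 exceed the error of a single gene several times. It is no measure of the error of a median over many genes, and the medians are given as a description.

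**Figure D1:**
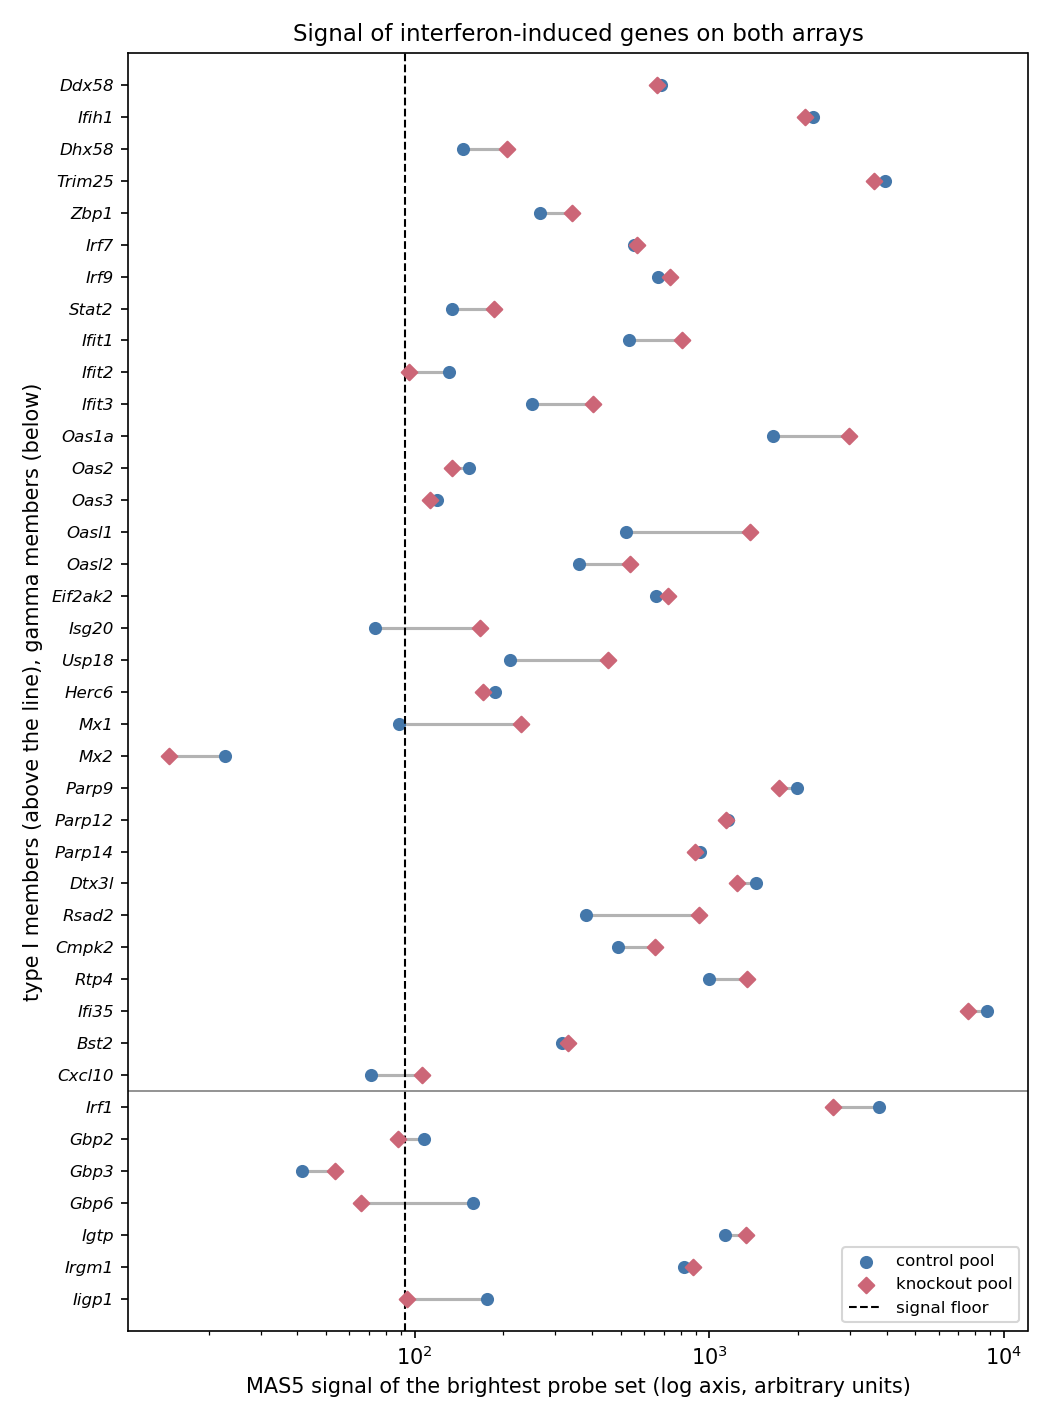
MAS5 signal (log axis) of the brightest probe set of the 39 genes in the control pool (circles) and the knockout pool (diamonds), 1 array each, with the floor of 92.9 as a dashed line. Signals are shown as deposited, without raising them to the floor. The diamond lies at least 2-fold to the right of the circle for Oasl1, Rsad2, Usp18, Mx1 and Isg20, and at least 1.5-fold to the left for Iigp1, Gbp6 and Mx2, the last with both points below the floor.

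Among the antiviral effectors, the 2-5A synthetase family was divided. These proteins bind double-stranded RNA, and the enzymatically active ones make a messenger that activates RNase L. Oasl1, a family member without that enzyme activity that restrains translation of Irf7 mRNA, had a signal of 520 in control and 1377 in knockout, a log2 ratio of 1.40 (2.65-fold higher). Its neighbour Oasl2 went from 363 to 538 (0.57), just short of 1.5-fold. Oas1a, an active synthetase, read 1645 and 2978 (0.86, 1.81-fold higher). Oas2 (152 and 134, ratio -0.19) and Oas3 (119 and 113, ratio -0.079) lay within the probe error and near the floor. Oas2 and Oas3 are adjacent, and 5 protein-coding genes lie between Oas3 and Oas1a, so ratios differed within a gene cluster by more than the probe error.

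The IFIT genes, whose products bind viral RNA that lacks the host cap, were divided as well. Ifit1 read 533 in control and 807 in knockout (0.60, 1.51-fold higher) and Ifit3 250 and 404 (0.69, 1.61-fold higher). Ifit2, next to Ifit3 on the chromosome, read 131 and 95.5, a ratio of -0.46, with the knockout signal at the edge of the floor. With the floor at the 70th percentile Ifit3 stood at 0.35, and with the pseudocount Ifit1 stood at 0.52, both within 1.5-fold. Each IFIT gene was read by 1 probe set.

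Rsad2 encodes viperin, an enzyme that makes a chain-terminating nucleotide. It read 382 in control and 921 in knockout (1.27, 2.41-fold higher), and its other probe sets gave 1.35 and, as a bound, 0.71. The adjacent gene Cmpk2, a mitochondrial nucleotide kinase that supplies viperin with substrate, read 491 and 653 (0.41). Rsad2 is the 1 higher gene of the 8 for which more than 1 probe set was available, and all 3 pointed the same way.

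Usp18, the protease that removes ISG15 from proteins and dampens signalling at the type I receptor, read 211 in control and 452 in knockout (1.10, 2.14-fold higher), or 0.51 when the floor was set at the 70th percentile. Herc6, a ligase that attaches ISG15 in the mouse, read 187 and 170 (-0.13), while Usp18 was higher. Mx1, a dynamin-like GTPase that blocks virus replication, was at least 2.47-fold higher, with 88.6 in control, just under the floor, and 230 in knockout. Isg20, an exonuclease, was at least 1.80-fold higher (73.2 in control, 167 in knockout). The mouse Mx2 probe set lay far below the floor on both arrays, with signals of 22.8 and 14.7.

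Other effectors differed less. Rtp4, a chaperone of membrane receptors, read 1000 and 1344 (0.43), and Bst2, the tetherin that holds virus particles at the membrane, 316 and 332 (0.071). Ifi35 read 8739 and 7571 (-0.21), with -0.16 and -0.11 by its other probe sets. Eif2ak2, the RNA-activated kinase PKR that stops translation, read 662 and 726 (0.13), but its dimmer probe sets gave 0.31 and 0.85. Cxcl10, a chemokine that draws activated T cells, was below the floor in control (71.2) and at 106 in knockout, so at least 1.14-fold higher.

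The Parp9 and Dtx3l genes, which share a promoter and encode an ADP-ribosylating complex of the interferon response, had near-equal ratios. Parp9 read 1986 in control and 1718 in knockout (-0.21) and Dtx3l 1438 and 1241 (-0.21, and -0.26 by its other probe set). Next to them Parp14 stood at -0.054, or at 0.016 by its dimmer probe set, and Parp12, on another chromosome, at -0.021. By the brightest probe sets all 4 ratios were below 0, as were 5722 of all 10452 genes above the floor on both arrays. All 4 lay within the probe error, on probe sets well above the floor.

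The sensors and transcription factors lay within 1.5-fold by their brightest probe sets. Ddx58, which encodes RIG-I, read 687 and 663 (-0.053) and Ifih1, which encodes MDA5, 2252 and 2112 (-0.093). Dhx58, the regulatory sensor LGP2, was higher by a ratio of 0.50 (146 and 206), and Zbp1, a sensor of Z-form nucleic acid, stood at 0.35, or at -0.099 when read by its dimmer probe set. Trim25, a ubiquitin ligase of the RIG-I pathway, stood at -0.13 and -0.10 by its bright probe sets and at 0.89 by its dimmest one. Irf7, the factor that amplifies type I interferon production, read 556 and 567 (0.029), and Irf9 670 and 736 (0.14). Stat2 stood at 0.48 (133 and 186). All 5 sensor genes and 4 transcription factor genes, with Irf1 among the latter, were thus within 1.5-fold, as were 9944 of all 11496 measured genes.

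**Figure D2:**
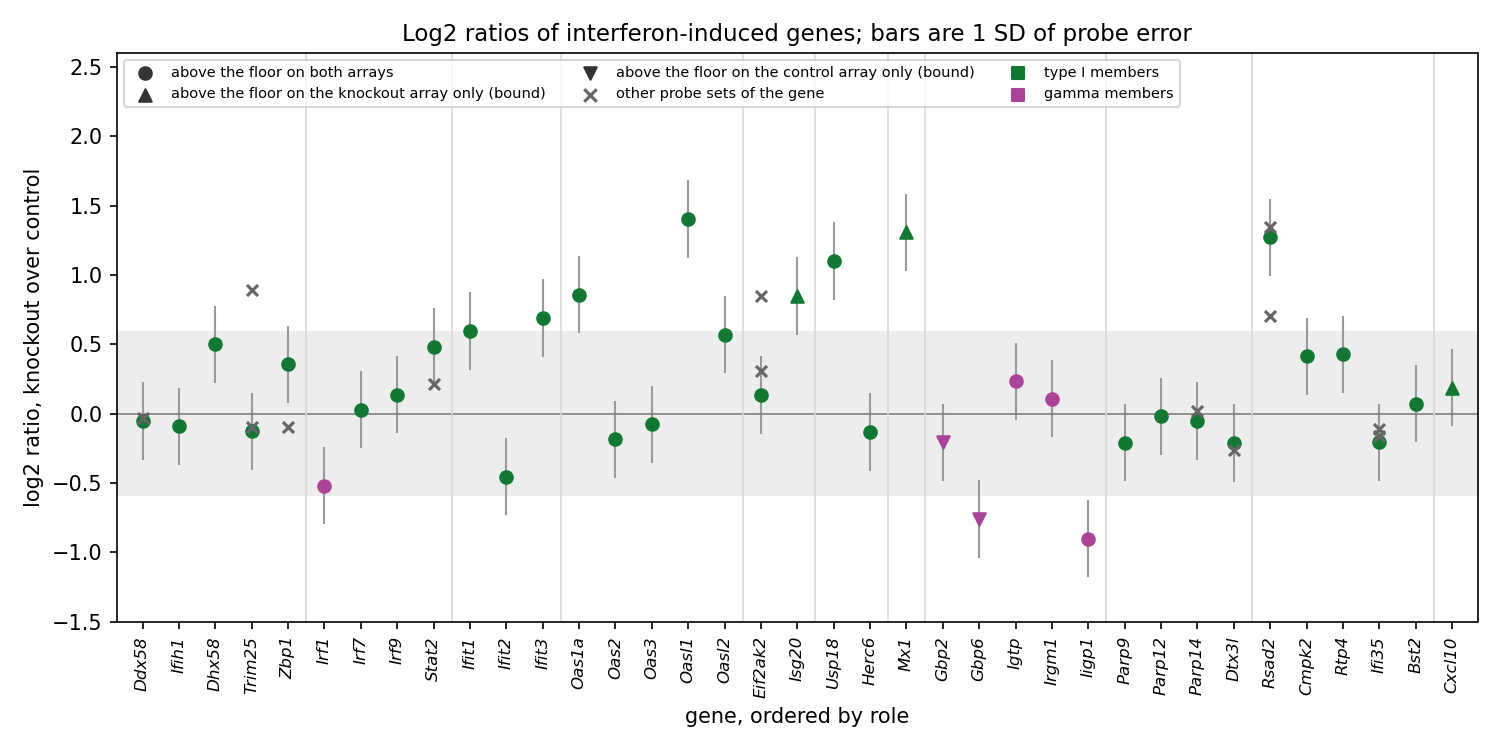
Log2 ratio, knockout over control, of the 37 genes above the floor on at least 1 array, in order of role from sensors at the left to effectors and the chemokine at the right. Bars are 1 SD of probe error (0.28), triangles are bounds, crosses are other probe sets of the same gene, and the grey band holds ratios within 1.5-fold. The points at 1.10 or above are Oasl1, Mx1, Rsad2 and Usp18, and the lowest is Iigp1.

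The gamma members were lower or little different. Iigp1, an immunity-related GTPase that acts on the vacuoles of intracellular parasites, read 176 in control and 94.2 in knockout (-0.90, 1.87-fold lower), with the knockout signal barely above the floor, and with a pseudocount equal to the floor its ratio was -0.52. Gbp6, a guanylate-binding protein, was at least 1.69-fold lower (157 in control, 65.5 in knockout), and Gbp2 at least 1.15-fold lower (107 and 87.8). Their other probe sets were below the floor on both arrays, with 85.3 and 80.6 for Gbp6 and 48.9 and 88.6 for Gbp2. The other Iigp1 probe set was below the floor on both arrays too (44.7 and 29.0). Irf1, a transcription factor of the gamma response, read 3759 in control and 2620 in knockout, a ratio of -0.52 (1.43-fold lower). Igtp (1130 and 1327, ratio 0.23) and Irgm1 (819 and 883, ratio 0.11), GTPases of the same family as Iigp1, lay within the probe error and on the other side of 0. Gbp3 was below the floor on both arrays. The median of type I members exceeded that of gamma members by 0.31 on the log2 scale, but only 4 gamma members were above the floor on both arrays. Lowering the floor to the 30th percentile gave 0.42, and including bounds gave 0.50, with a median of -0.36 over 6 gamma members. With the floor at the 70th percentile it was -0.027, since Igtp, Irgm1 and Irf1 were then the only gamma members above it on both arrays.

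Markers of T and natural killer cells, known sources of interferon gamma, were lower in the same knockout pool. Of 20 listed, 16 had a probe set and 13 exceeded the floor in 1 pool or both. At least 1.5-fold lower were 12 of these 13 (92.3%, against 8.74% of all genes). All 11 on both arrays were at least 1.5-fold lower, against 8.20% of all such genes, and their median was -2.09. The summed signal of the 16 was 45665 in control and 9808 in knockout, and no marker read 0. In pooled tissue RNA, fewer cells of a type and less RNA per cell cannot be told apart. Of 12 markers of macrophages and dendritic cells, 9 exceeded the floor in 1 pool or both. Csf1r and C1qa, 2 of these, were at least 1.5-fold higher (22.2%, against 4.76% of all genes) and none of the 9 lower. Through the knockout array alone entered 4 of the 9, C1qa among them, which obliged them to differ upwards. On both arrays 1 of 5 was at least 1.5-fold higher, against 4.51% of all such genes, and the median of the 5 was -0.37. Summed signals of the 12 were 4551 and 4549 with Lyz2, which makes up most of the sum, and 1326 and 2072 without it. B and plasma cell markers were higher, 8 of 11 by at least 1.5-fold (72.7%, against 4.76% of all genes, with summed signal 21289 and 39516). On both arrays 7 of 10 were, against 4.51% of all such genes. Of 7 markers of plasmacytoid dendritic cells, which secrete much type I interferon, Ly6d (1.13) was higher and Ccr9 (-0.70) lower by 1.5-fold. Each is 14.3% of the 7, against 4.76% of all genes higher and 8.74% lower. Siglech, the defining marker, was just above the floor in both pools (98.1 and 95.8). The part of these cells in the ratios of the interferon-induced genes was not tested.

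The rest of the pathway was read from further written lists. Of 21 interferon genes listed, 10 had a probe set annotated to that gene alone. None of the 10, Ifng, Ifnb1 and several Ifna genes among them, was above the floor on either array. The interferon lambda genes Ifnl2 and Ifnl3 had no such probe set, so they were not measured. Among 14 measured genes of receptors and signalling, 1 was 1.5-fold higher (7.14%, against 4.76% of all genes) and none of the 14 lower, with a median of -0.12. The receptor chains Ifnar1 (-0.21), Ifnar2 (-0.30) and Ifngr1 (-0.23) and the kinases Jak1 (-0.18), Jak2 (-0.12) and Tyk2 (0.15) lay within or close to the probe error. Ifngr2 stood at -0.40, and Ifnlr1, the receptor chain for interferon lambda, at 0.33 (278 and 351). Socs3, a feedback inhibitor of JAK signalling, was the higher one (480 and 893, ratio 0.90), while Socs1 was below the floor on both arrays. All 14 measured genes of nucleic acid sensing and interferon induction were within 1.5-fold, as were 9944 of all 11496 measured genes. They ran from Tlr3 at -0.41 to Mavs, the adaptor of RIG-I, at 0.51 (871 and 1242).

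Other type I interferon-induced genes did not share the higher signals. Of 42 measured genes of a further list, none was 1.5-fold higher, against 4.76% of all genes, and 9 were at least 1.5-fold lower (21.4%), against 8.74%. The median over 41 of them on both arrays was -0.075. Mndal, a DNA-binding protein of the HIN-200 family, was lowest (450 and 223, ratio -1.01), followed by Tent5a (-0.84) and Pml (403 and 234, ratio -0.79), the scaffold of nuclear bodies. The highest were Helz2, a nuclear receptor coactivator (1078 and 1525, ratio 0.50), Tor3a (0.44) and Ifi203, at least 1.29-fold higher. The higher ratios of Oasl1, Rsad2, Usp18 and Mx1 stand beside type I genes that were within 1.5-fold or lower.

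Further genes known for induction by interferon gamma had ratios mostly below 0. Of 20 measured, 5 were at least 1.5-fold lower (25%, against 8.74% of all genes) and 1 higher (5%, against 4.76%). Of these 5, 2 entered through the control array alone, which obliged them to differ. On both arrays 3 of 18 were at least 1.5-fold lower, against 8.20% of all 10452 such genes. Below 0 were 13 of the 18, as were 5722 of the 10452. The lowest were Psmb8, an immunoproteasome subunit (3433 and 1468, ratio -1.23), and Ifi47, an immunity-related GTPase (2150 and 1010, ratio -1.09), and Gbp8 was at least 1.98-fold lower (184 and 78.0). Ido1, the tryptophan-degrading enzyme that interferon gamma induces, went the other way, with 350 in control and 942 in knockout (1.43, 2.69-fold higher). Batf2 (0.54) and the chemokine gene Cxcl11 (0.35) were next highest. Both lists of gamma-induced genes thus hold genes on either side of 0. A relation of these ratios to the T and natural killer markers of the same pools was not tested.

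**Figure D3:**
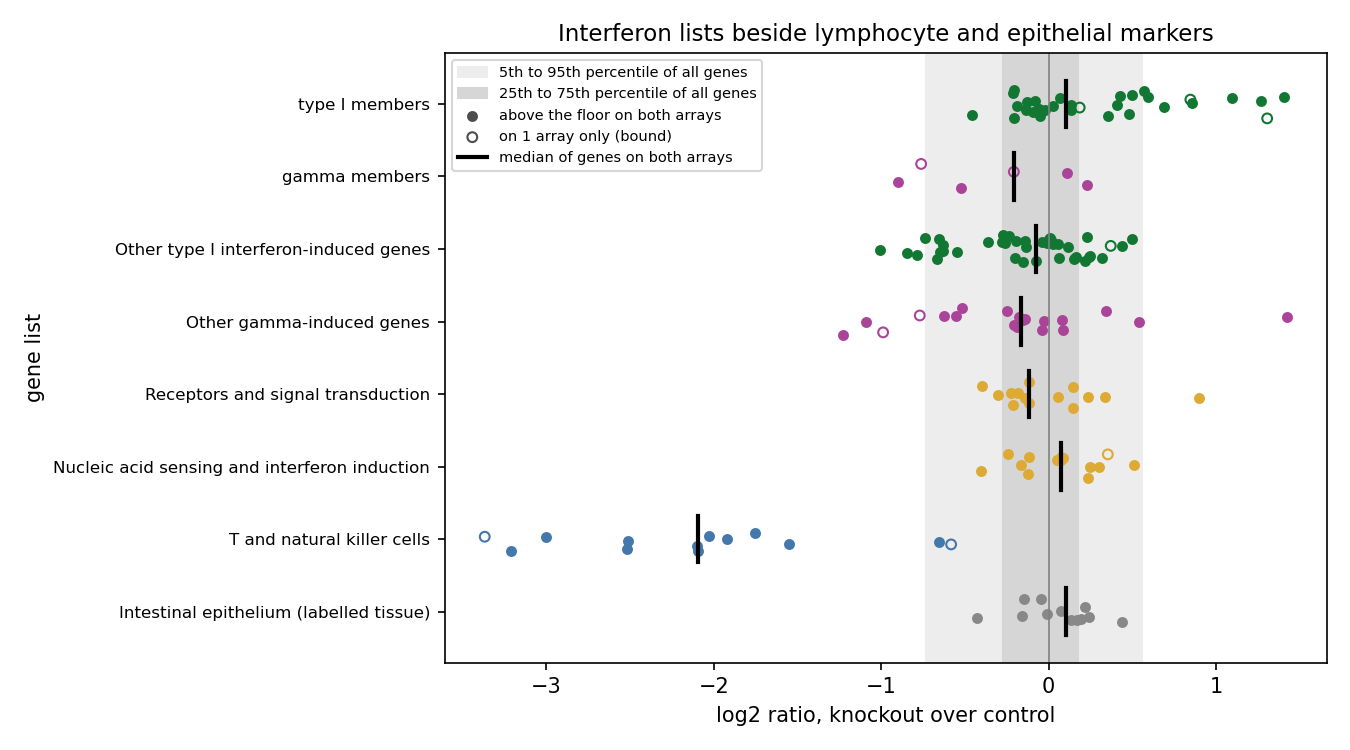
Log2 ratios, knockout over control, of the type I and gamma members, 4 further interferon lists, T and natural killer markers and epithelial markers. Each point is a gene, open points are bounds, black bars are medians without the bounds, and grey bands hold the central part of all 10452 such genes. Type I members reach 1.40 at the right while the other type I genes end at 0.50, and the T and natural killer markers lie at the far left with a median of -2.09.

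The promoter table held 30 of the 41 genes. Usp18 and Mx1, a pair of the highest, are among the 11 it lacks and do not enter the comparison by motif. An ISRE core lay within the 300 bases around the start (250 before it and 50 after it) in 16 of the 30 genes (53.3%), against 3.99% of all 27025 genes with a promoter in the table. A GAS match was found in 8 (26.7%), against 9.55% of all, and in 1 place a GAS match and an ISRE core overlapped. The genes were listed as interferon-induced, so this share describes the list and not the comparison of pools. Of the genes that both arrays read above the floor, 12 with an ISRE core had a median log2 ratio of 0.18 (-0.093 to 1.27), and 12 without one had -0.075 (-0.52 to 1.40). The groups overlap over most of their range and share both arrays, and no test was made. Rsad2, Oas1a, Ifit1 and Ifit3 hold the motif, but so do Oas3, Ifih1 and Ddx58 with ratios below 0, and Oasl1, the gene with the highest ratio, has no match in this window.

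**Figure D4:**
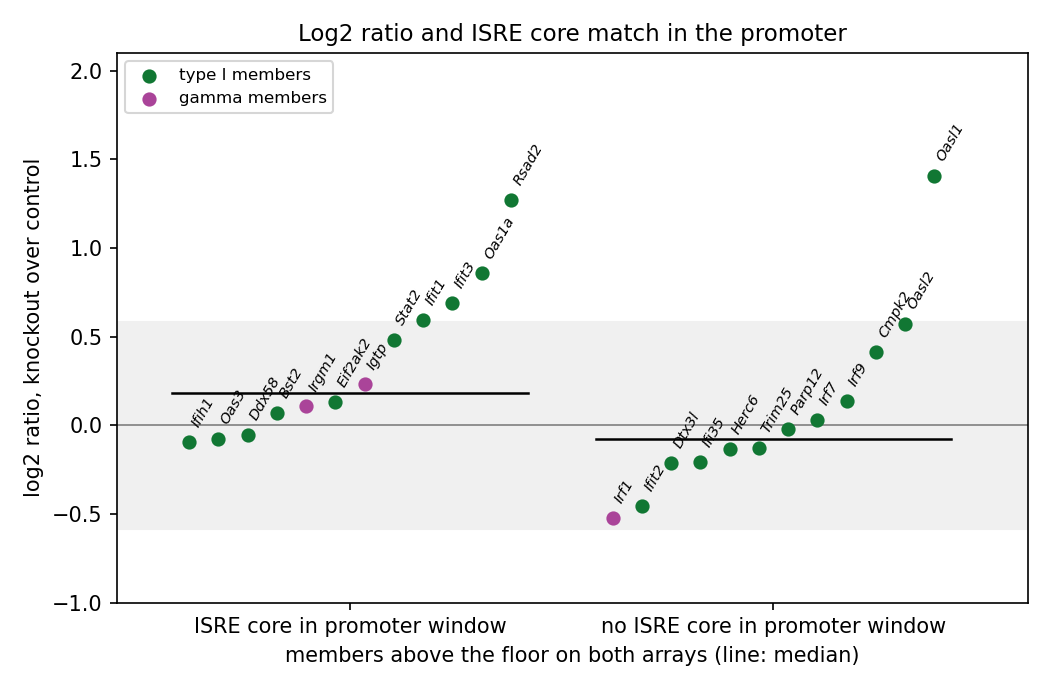
Log2 ratio, knockout over control, of the 24 genes above the floor on both arrays that have a promoter in the table, divided by whether the ISRE core was found in it. Each point is a gene, black lines are the medians (0.18 and -0.075), and the grey band holds ratios within 1.5-fold. Of the genes outside the band, 4 hold the motif and Oasl1 does not.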

How the data were processed

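Crypt RNA pooled from 5 mice per genotype was measured on 1 Affymetrix mouse array per pool (45101 probe sets). The authors deposited intensities on a linear scale, 1 per probe set, computed with MAS5 per the submitters' processing notes, which name no version. MAS5 scales each array by 1 factor, and both deposited columns had a mean of 500.00 after trimming 2% at each end, so no further scaling was applied. The number of probe sets matches the full mouse genome array, not the A version that the design text names.

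After removal of 64 control probe sets, 34945 of 45037 carried 1 gene symbol, and symbols were updated through RefSeq identifiers (GRCm38.p6) for 34741. Probe sets with several symbols or none name no gene here, which may leave out members. The floor was the 50th percentile of all values (92.9), and a gene took its probe set of highest mean log2 signal. Each group is 1 array, so counts of the lists past 1.5-fold are read beside the share of all measured genes past it. Probe error is the SD of the difference between the ratios of the 2 brightest probe sets of a gene, divided by the square root of 2. The 18 hybridisation controls differed by at most 0.086 on the log2 scale. Python 3.11.15, pandas 2.3.3 and statsmodels 0.14.6 (lowess) were used, and the ratio functions were tested on simulated data.

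The members and lists were chosen with earlier results of these data known. Any member could be named, and of the other lists the 3 highest and 3 lowest genes, the receptor chains, the kinases, Socs1 and Lpcat3. Interferon genes, Socs3 and Siglech are named as members of their lists. Alternatives varied the floor, scaling, pseudocount, probe-set choice and the place of Cxcl10, and 1 more, chosen after seeing the data, included bounds in the medians.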

Additional observations from a re-analysis of the deposited data

Results flagged for a closer look

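A probe set annotated to both Isg15 and Gm9706 enters no comparison, since it cannot be assigned to either gene. Control read 336 and knockout 832 (log2 ratio 1.31, 2.48-fold higher), and it is given because it lay above the control level outside the values compared. No second probe set was available against which to set it.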

How the results depend on the processing

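No paired analysis was possible because a genotype has a single array, which also means that none could be omitted. The median of type I members lay between 0.081 and 0.17 under 9 alternatives and at 0.14 with bounds included, where that of gamma members was -0.36 and the difference 0.50, while that of all genes lay between -0.047 and -0.0012. With the floor at the 70th percentile (signal 318), the median of gamma members was 0.11 over 3 genes, the difference between type I and gamma members -0.027, and the members at least 1.5-fold higher and lower numbered 4 and 0 of 25 measured; fewer genes pass that floor and ratios to it shrink. With a pseudocount equal to the floor, 1 member was at least 1.5-fold lower and 6 were higher. Under the remaining alternatives 8 or 9 members were higher and 2 lower. For all genes only the median was recomputed, so the counts under the alternatives have no share of all genes beside them. Of 284 recomputed values of single members, 277 moved by less than the probe error and no value that was past 1.5-fold changed sign. Oasl1, Rsad2 and Oas1a stayed past 1.5-fold in all 8 settings run for single genes. Iigp1 was at -0.52 and Ifit1 at 0.52 with the pseudocount. Usp18 was at 0.51 and Ifit3 at 0.35 with the higher floor, which lies above their control signals. With that floor 12 dim members, among them Mx1, Isg20, Gbp6 and Iigp1, had no value. Signals near the floor limit Mx1, Isg20, Ifit2, Gbp6 and Iigp1 most.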
